A study of Mus musculus with 16 samples.

Results

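The difference between the left and the right ventricle was followed through fetal growth in control mouse hearts, by setting the left minus right difference of gene expression at E17.5 against the same difference at E13.5 and E14.5 (E, embryonic day). The 10 control libraries of the 16 in the series entered the comparison; they were taken by label, as the left and the right ventricle of each of 5 control embryos. The E17.5 embryos were 2 controls of litter 333, and the earlier embryos were 2 controls of another litter at E14.5 and 1 control of litter 260 at E13.5. The strain was given as C57BL/6 throughout, and each control was a littermate of an embryo with hypoplastic left heart syndrome (HLHS), in which the left ventricle is underdeveloped; the 6 libraries of the 3 HLHS embryos are read here only as values beside the controls. Neither a treatment nor the genotype of the controls was stated in the labels. Each stage was 1 litter, so stage and litter cannot be told apart, and 2 embryos against 3 leave an exact two-sided permutation test of a single value with a smallest p of 0.2.

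The ventricles of the mammalian heart come from different progenitors: most left ventricular muscle descends from the first heart field, marked by Tbx5 and Hand1, and most right ventricular and outflow tract muscle from the second heart field. Both chambers are already patterned when they form. During late gestation the right ventricle pumps most of its blood through the ductus arteriosus, and the muscle of both chambers replaces fetal isoforms of contractile proteins with mature ones and takes up fatty acid oxidation.

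Total counts per control library ran from 17081273 to 28648645, and 16238 genes were tested. The 9 listed markers of ventricular muscle cells all passed the count filter, and their summed level, in CPM, a read count scaled to library size, was 27502.5 to 27691 in left and 27713 to 28783.5 in right ventricles at E17.5, against 20898.5 to 29937 in left and 24077 to 33559.6 in right ventricles earlier. In bulk tissue, fewer cells of a type and less RNA per cell cannot be told apart. The markers of the atria, which adjoin the dissected chambers, stood lower in the left ventricles at E17.5. The 10 markers together reached 741 to 795 CPM in left and 999 to 1385 CPM in right ventricles at E17.5. Earlier they reached 1109.7 to 1691 CPM in left and 1313 to 1964 CPM in right ventricles. Each of the 10 had reads in some control library.

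Among called genes, the chamber difference was mostly kept in direction. At E17.5, 40 genes were higher in the left (0.246% of those tested) and 143 higher in the right ventricle (0.881%), by edgeR's quasi-likelihood test with a term for each embryo, at a Benjamini-Hochberg adjusted p under 0.05. At E13.5 and E14.5 together, 522 were higher in the left (3.21%) and 916 in the right (5.64%). Of these, 10 left and 88 right genes were at least 2-fold apart at E17.5, against 61 left and 187 right genes earlier. The change between them, tested as 1 coefficient over the 5 embryos, passed for 1 gene in either direction (0.00616%), Myom2; 1806 genes had an unadjusted p under 0.05, and DESeq2 called 40. By class, 140 genes stayed (28 left, 112 right), 1 faded, none appeared, and 1, Aldh1l2, was called with opposite signs. A gene that stayed had no change called, which does not make its differences equal in size. Of the 141 genes called at both with the same sign, 28.4% had an unadjusted edgeR p of the change under 0.05. The share was 45.7% for the 1296 genes called earlier alone and 87.8% for the 41 called at E17.5 alone. How each set was chosen bears on these shares. The counts rest on single embryos. Without embryo 2 at E14.5 the change passed for 28 genes, without embryo 3 at E14.5 for 0, and without the E13.5 embryo for 829. The E17.5 count of 183 became 440 and 96 without embryos 2 and 3 at E14.5, 566 without the E13.5 embryo, and 39 and 16 without embryos 2 and 3 at E17.5. The earlier count of 1438 became 125 without embryo 3 at E14.5, 3845 without the E13.5 embryo, and 702 and 676 without embryos 2 and 3 at E17.5.

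Genes called at 1 stage group alone mostly leaned the same way at the other. Of 1296 genes called earlier and not at E17.5, 1015 had the same sign at E17.5, with a median absolute log2 difference of 0.15 at E17.5 and 0.38 earlier. Of 41 genes called at E17.5 and not earlier, 36 had the same sign earlier, with medians of 0.79 at E17.5 and 0.23 earlier. These medians follow from how each set was chosen and are given as descriptions. No like share of all tested genes with the same sign at both is given. The sign was the same in all 5 embryos for 845 of the 1296 and 23 of the 41 genes, against 19.6% of all tested genes. A call at 1 stage group favours this pattern. Across the 11732 genes whose average log2 CPM was 2 or more, the mean differences of both stage groups correlated with Pearson's r at 0.58 and Spearman's rho at 0.29, across genes, which are not independent replicates. Between single embryos of both groups, rho ran from 0.04 (E17.5 embryo 2, E14.5 embryo 2) to 0.40 (E17.5 embryo 3, E14.5 embryo 2). Within a stage, rho was 0.45 between the E17.5 embryos and 0.69 between the E14.5 embryos. The E13.5 embryo had 0.17 and 0.33 with E14.5 embryos 2 and 3, and 0.20 and 0.21 with E17.5 embryos 2 and 3.

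**Figure D1:**
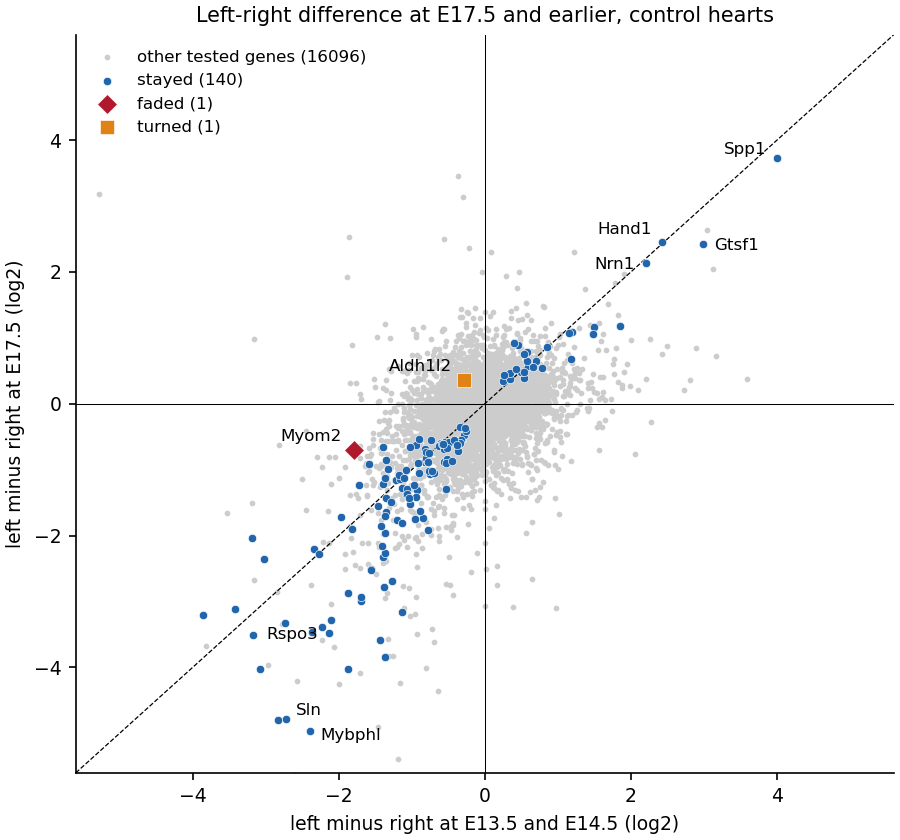
Left minus right difference (log2, fitted) of each tested gene at E17.5 (vertical axis) and at E13.5 and E14.5 together (horizontal axis), 5 control embryos; the dashed line marks equal differences and 13 genes lie outside the axes. Myom2, with −0.70 at E17.5 and −1.79 earlier, lies between that line and 0; genes that stayed had the same sign at both and not always a like size, and the change of Sln among them was −2.06.

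Myom2, which encodes the M-band protein myomesin 2 of mature striated muscle (ENSMUSG00000031461), had the difference that faded. Its level was 398 CPM in the left and 586 CPM in the right ventricle of embryo 2, and 273 and 488 CPM in those of embryo 3, at E17.5. Earlier it was 21.7 CPM in the left and 74.3 CPM in the right ventricle at E13.5, 49.3 and 173 CPM in embryo 2 at E14.5, and 53.9 and 185 CPM in embryo 3 at E14.5. Every E17.5 library was above every earlier one, and the right ventricle was higher than the left in 5 of 5 embryos.

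The left minus right difference of Myom2 was −0.56 and −0.84 on the log2 scale in the E17.5 embryos, against −1.77 at E13.5 and −1.81 and −1.78 at E14.5. The stage groups did not overlap. The fitted difference was −0.70 ± 0.08 at E17.5 and −1.79 ± 0.07 earlier (SE), and the change was 1.09 ± 0.11 (95% interval 0.85 to 1.33; edgeR adjusted p = 0.0329). Over 17 alternatives the change ran from 0.95 to 1.21, and 13 called it, with adjusted p from 6.27e-14 to 1.00. The HLHS embryos, which the test did not use, had −0.87 at E17.5, against −1.84 at E13.5 and −1.86 at E14.5. Without embryo 3 at E14.5 the adjusted p was 0.596, and without embryos 2 and 3 at E17.5 it was 0.248 and 0.116.

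**Figure D2:**
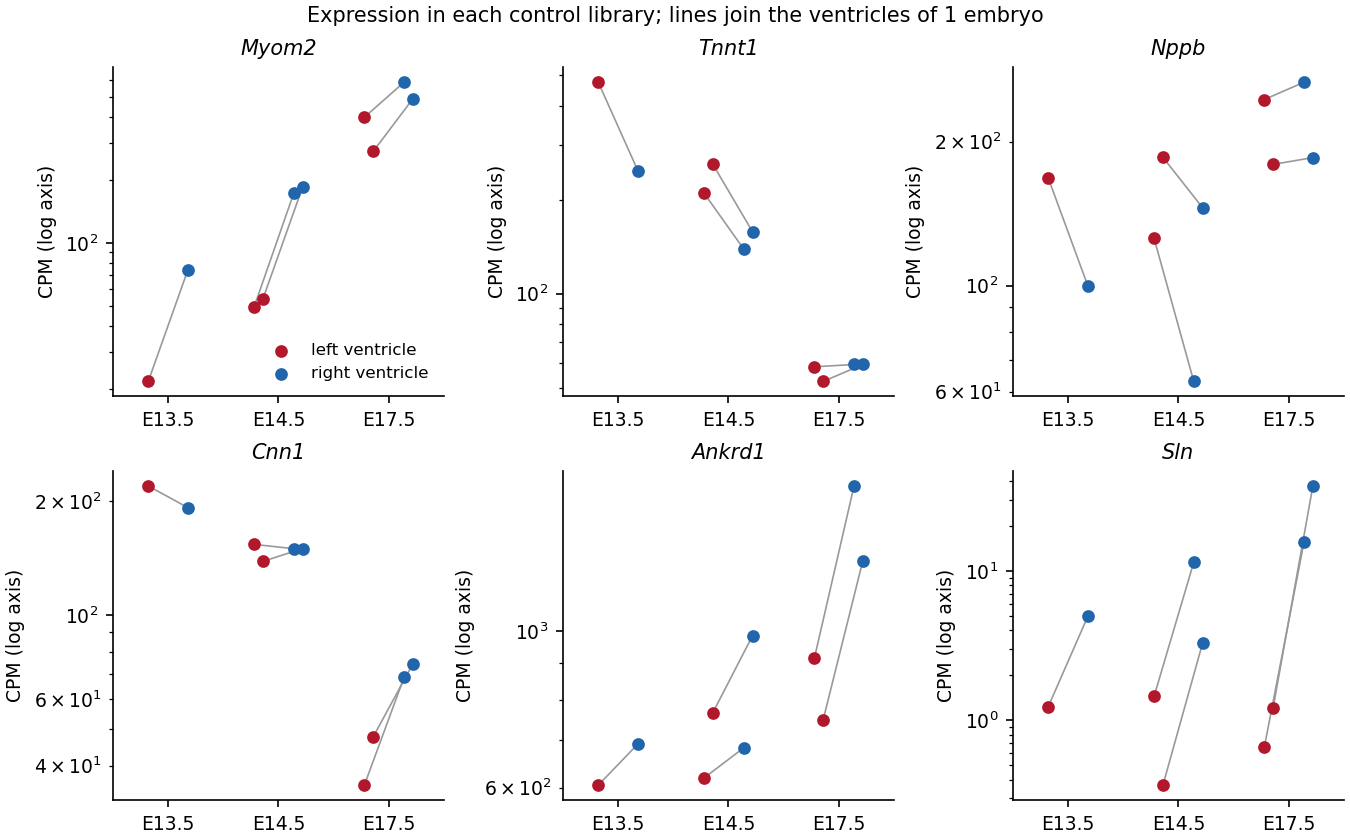
CPM (log axis) of 6 genes in each control library, with stages from E13.5 to E17.5 and the left ventricle left of the right in each embryo; a line joins the ventricles of 1 embryo. For Myom2 the lines slope up to the right at every stage and are flatter at E17.5; for Tnnt1 and Nppb they slope down at E13.5 and E14.5 and are nearly level at E17.5.

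The other 9 of the 10 genes with the smallest p missed the threshold, each with an edgeR adjusted p of 0.143 for the change. In all 9 the E17.5 embryos lay outside the range of the earlier ones, which the choice by smallest p largely fixes; they did so for 29.2% of all tested genes. In 7 of them every E17.5 embryo had one sign and every earlier embryo the other, and a pattern of opposite signs held for 8.81% of all tested genes. The choice by smallest p favours this pattern too, so the counts are given as descriptions. The change was positive, toward the left ventricle, in 7 of the 9 and negative in Tnnt1 and Cnn1.

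Tnnt1, the slow skeletal troponin T that the fetal heart also makes, was at 58.3 CPM in the left and 59.3 CPM in the right ventricle of embryo 2 and at 52.3 and 59.3 CPM in embryo 3 at E17.5. At E13.5 it was at 475 CPM in the left and 247 CPM in the right ventricle, and at E14.5 at 210 and 139 CPM in embryo 2 and 259 and 158 CPM in embryo 3. The earlier left excess, 0.75 ± 0.07 on the log2 scale (SE; adjusted p = 0.000858), stood beside −0.10 ± 0.09 at E17.5, and the change was −0.85 ± 0.12. Tnnt1 was thus lower in all E17.5 libraries than in any earlier one, in both chambers.

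Cnn1, the smooth muscle calponin that embryonic heart muscle also makes, was at 35.5 CPM in the left and 68.4 CPM in the right ventricle of embryo 2 and at 47.6 and 74.3 CPM in embryo 3 at E17.5. Earlier it was at 219 CPM in the left and 192 CPM in the right ventricle at E13.5, and at 154 and 150 CPM and 139 and 150 CPM at E14.5. The difference was called at E17.5 (−0.79 ± 0.10, adjusted p = 0.00741) and was 0.04 ± 0.07 earlier. Of 12 listed markers of smooth muscle and pericytes, 2 were higher in the right and 0 in the left ventricle at E17.5, and 2 and 1 earlier. Their median difference was −0.02 at E17.5 and −0.03 earlier. The shares of all genes tested were 0.881% right and 0.246% left at E17.5, and 5.64% and 3.21% earlier. The 12 together reached 2959 to 3216 CPM in left and 3086 to 3529.96 CPM in right ventricles at E17.5. Earlier they reached 2619 to 2814 CPM in left and 2626 to 2907 CPM in right ventricles. The part of these cells in the Cnn1 difference was not tested.

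Aldh1l2, the mitochondrial formyltetrahydrofolate dehydrogenase, was the gene called with opposite signs. The left minus right difference was 0.47 and 0.27 at E17.5, against −0.28 at E13.5 and −0.29 and −0.28 at E14.5, all on the log2 scale. The fitted values were 0.37 ± 0.07 at E17.5 (adjusted p = 0.0422) and −0.28 ± 0.06 earlier (adjusted p = 0.0175). The test of the change itself, 0.65 ± 0.09, missed the threshold.

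Hif3a, a hypoxia-inducible factor subunit, had a similar pair of values. Its difference was 0.36 and 0.26 at E17.5, against −0.23 at E13.5 and −0.24 and −0.27 at E14.5. The change was 0.56 ± 0.09. The right excess was called earlier, and the left excess at E17.5 had an adjusted p of 0.067.

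Adamts6, a secreted metalloproteinase of the heart's matrix, and Pcsk6, a proprotein convertase that cleaves growth factor precursors, were higher in the right ventricle earlier. The difference of Adamts6 was 0.34 and 0.12 at E17.5, against −0.92 at E13.5 and −0.50 and −0.83 at E14.5. That of Pcsk6 was 0.11 and 0.02 at E17.5, against −1.40 at E13.5 and −0.80 and −0.97 at E14.5. The changes were 0.97 ± 0.13 and 1.12 ± 0.17. The right ventricles held 27.4 and 21.3 CPM of Pcsk6 at E17.5, close to the 33.4, 24.6 and 21.4 CPM of the earlier right ventricles, while the left ventricles held 29.6 and 21.6 CPM at E17.5, against 12.6, 14.1 and 10.9 CPM earlier.

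Zbtb16, a zinc finger transcription factor, Plin4, a coat protein of lipid droplets, and Abcc8, the sulfonylurea receptor subunit of ATP-sensitive potassium channels, also had an earlier right excess that was called. For Zbtb16 the difference was 0.46 and 0.18 at E17.5, against −0.50 at E13.5 and −0.85 and −0.84 at E14.5. For Plin4 it was 0.14 and 0.07 at E17.5, against −0.51, −0.63 and −0.94. Abcc8 had −0.09 and −0.16 at E17.5, against −0.67, −0.67 and −0.69. The levels of Plin4 differed most by stage, with 61.3 and 52.2 CPM in left and 55.5 and 49.9 CPM in right ventricles at E17.5, against 2.20 to 8.86 CPM in left and 3.17 to 17.1 CPM in right ventricles earlier.

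The 3 HLHS embryos come from the same litters and entered none of these tests. For 10 of the 10 genes, the HLHS difference at E17.5 minus the mean of the earlier HLHS differences had the sign of the control change, against 54.5% of all tested genes. It was 0.99 for Myom2, 0.62 for Aldh1l2, 0.67 for Adamts6, 0.83 for Zbtb16, −1.33 for Cnn1, 0.52 for Pcsk6, 0.17 for Plin4, 0.36 for Hif3a and 0.55 for Abcc8. Tnnt1 is counted among the 10 with almost no change: its HLHS differences were 0.34 at E17.5, against 0.24 at E13.5 and 0.44 at E14.5. These embryos share litter and stage with the controls and carry the malformation, with 1 embryo a stage.

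**Figure D3:**
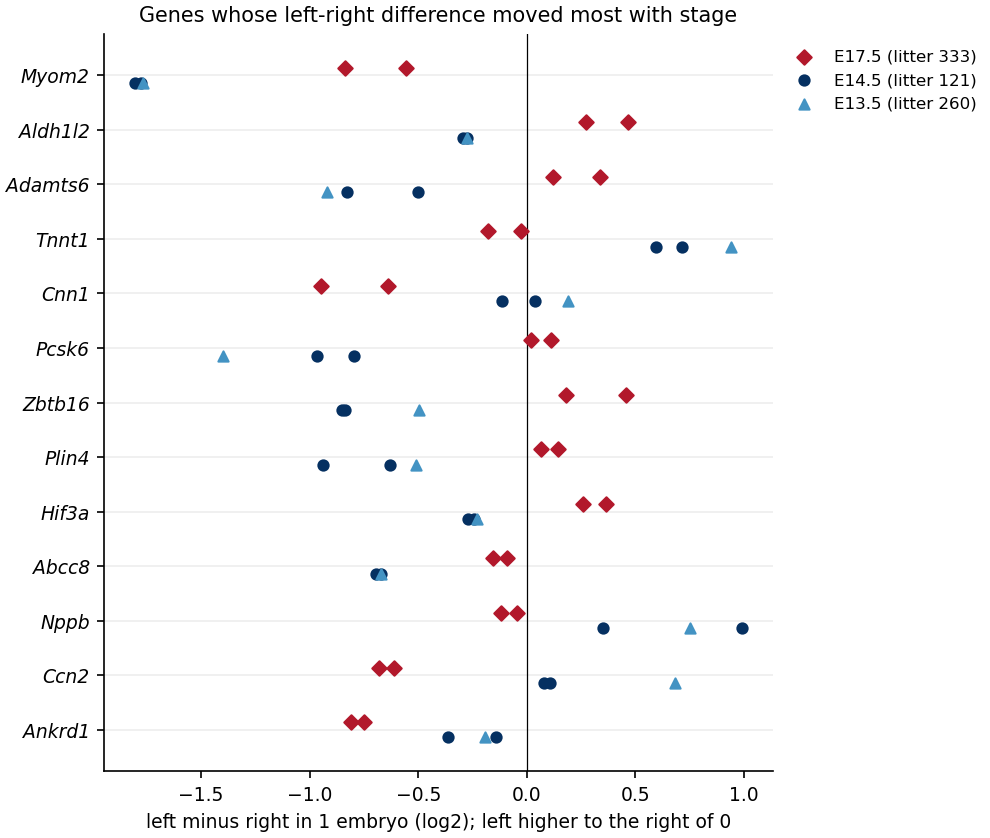
Left minus right difference (log2 CPM) in each control embryo for the 10 genes with the smallest p of the change and for Nppb, Ccn2 and Ankrd1; diamonds are E17.5, circles E14.5 and triangles E13.5. Myom2 passed the test of the change; in every gene shown the diamonds lie outside the span of the other symbols.

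Genes of cardiac stress and stretch, which heart muscle switches on under mechanical load, leaned to the right ventricle at E17.5. Of the 19 listed, 6 were higher in the right and 0 in the left at E17.5, while 3 were higher in the left and 3 in the right earlier; the median difference was −0.30 at E17.5 and −0.07 earlier, against 0.00 and −0.01 over all genes tested. Over all genes tested, 0.246% were higher in the left and 0.881% in the right at E17.5, and 3.21% and 5.64% earlier. None of the 19 passed the test of the change (median −0.40, smallest edgeR adjusted p 0.176). The list shares Nppa with the atrial markers and Acta1, Ankrd1 and Mybphl, among others, with the sarcomere genes. Its most negative change, −2.58, was that of Mybphl, an atrial gene described below.

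Nppb, the B-type natriuretic peptide of ventricular muscle, was at 245 CPM in the left and 266 CPM in the right ventricle of embryo 2 and at 179 and 185 CPM in embryo 3 at E17.5. At E13.5 it was at 168 CPM in the left and 99.7 CPM in the right, and at E14.5 at 125 and 63.0 CPM and 185 and 145 CPM. The left excess was called earlier (0.69 ± 0.10, adjusted p = 0.00562), and the difference was −0.08 ± 0.12 at E17.5. The change of −0.78 ± 0.16 missed the threshold (adjusted p = 0.19).

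Ankrd1, a stress-responsive repeat protein of the titin complex, was at 916 CPM in the left and 1607 CPM in the right ventricle of embryo 2 and at 749 and 1259 CPM in embryo 3 at E17.5. Earlier it was at 605 CPM in the left and 692 CPM in the right at E13.5, and at 619 and 684 CPM and 767 and 986 CPM at E14.5. The right excess was called at E17.5 (−0.78 ± 0.09, adjusted p = 0.00411) and not earlier (−0.23 ± 0.07, adjusted p = 0.0684). Ccn2, a matricellular growth factor and target of TEAD factors, had differences of −0.68 and −0.61 at E17.5, against 0.68 at E13.5 and 0.08 and 0.11 at E14.5. It too was called at E17.5 (adjusted p = 0.0405) and not earlier. The skeletal actin gene Acta1 was higher in the right ventricle at both, by −1.30 ± 0.19 at E17.5 and −1.06 ± 0.15 earlier.

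In the HLHS embryos, which have a small left ventricle, the same 3 genes had a more negative difference at E17.5 than earlier. Nppb had −0.24 at E17.5, against 0.94 at E13.5 and 1.23 at E14.5. Ankrd1 had −0.90, against 0.05 and 0.24, and Ccn2 had −0.31, against 1.23 and 0.78.

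Promoter sequences are shown for Ankrd1 and Myl1, both called higher in the right ventricle at E17.5, and for Nppb, called higher in the left ventricle earlier, as 250 bases before the gene start in RefSeq (GRCm38.p6), 5′ to 3′ on the gene's strand. Capitals mark the muscle CAT motif bound by TEAD factors (CATTCC or its reverse complement GGAATG) and a GATA motif (AGATAA or TTATCT); the motifs do not overlap each other.
Nppb, chr4:147985650-147985899, plus strand: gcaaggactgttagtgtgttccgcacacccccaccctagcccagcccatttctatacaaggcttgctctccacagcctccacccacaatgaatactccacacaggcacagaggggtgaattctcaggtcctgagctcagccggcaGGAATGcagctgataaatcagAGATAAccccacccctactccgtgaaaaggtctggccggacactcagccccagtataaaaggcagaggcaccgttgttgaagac
Ankrd1, chr19:36119845-36120094, minus strand: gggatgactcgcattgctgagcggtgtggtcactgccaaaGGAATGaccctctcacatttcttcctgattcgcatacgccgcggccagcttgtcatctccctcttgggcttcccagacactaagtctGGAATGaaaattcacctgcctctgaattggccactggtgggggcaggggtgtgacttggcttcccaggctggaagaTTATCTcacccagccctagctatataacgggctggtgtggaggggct
Myl1, chr1:66945057-66945306, minus strand: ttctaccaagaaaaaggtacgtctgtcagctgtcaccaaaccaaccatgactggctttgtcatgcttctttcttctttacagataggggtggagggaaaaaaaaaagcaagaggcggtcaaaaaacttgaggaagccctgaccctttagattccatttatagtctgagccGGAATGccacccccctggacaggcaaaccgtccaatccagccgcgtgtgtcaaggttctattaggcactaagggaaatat
The muscle CAT motif starts 105 bases before the start of Nppb, 210 and 123 bases before Ankrd1, and 80 bases before Myl1, and the GATA motif 84 and 47 bases before Nppb and Ankrd1. A muscle CAT match was present in 12.6% and a GATA match in 9.99% of the 32851 windows of this length. Of 16 cardiac stress genes with a window, 5 held the muscle CAT motif and 4 the GATA motif; of the 10 genes with the smallest p of the change, 5 had a window and none held either. A match is a string of letters in this window and says nothing of binding.

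Of the 10 listed atrial muscle genes, 5 were higher in the right and 1 in the left at E17.5, and 4 and 1 earlier. Their median difference was −0.61 at E17.5 and −0.21 earlier, and none passed the test of the change. Over all genes tested, 0.881% were called right and 0.246% left at E17.5, and 5.64% and 3.21% earlier. Sln, the sarcolipin that inhibits the calcium pump of atrial muscle, was at 0.66 CPM in the left and 15.7 CPM in the right ventricle of embryo 2 and at 1.22 and 37.1 CPM in embryo 3 at E17.5. Earlier it was at 1.23 CPM in the left and 4.99 CPM in the right at E13.5, and at 1.45 and 11.4 CPM and 0.37 and 3.29 CPM at E14.5. The groups of differences did not overlap (−4.40 and −4.84 at E17.5, against −1.95, −2.91 and −2.90), and the change of −2.06 ± 0.34 had an adjusted p of 0.164. Between E17.5 and E14.5 alone, the change of Sln was called (edgeR adjusted p = 0.00985, and 0.0317 with a trend on transcript length removed).

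Mybphl, an atrial relative of myosin-binding protein C, had −4.97 ± 0.35 at E17.5 and −2.39 ± 0.26 earlier. Myl7, the atrial regulatory light chain, had −1.29 ± 0.17 at E17.5 and −0.52 ± 0.14 earlier. Myl1, the light chain whose promoter is shown above, had −0.69 ± 0.10 at E17.5 (called) and −0.03 ± 0.09 earlier (not called). Bmp10, a growth factor of the trabeculae and of the right atrium, ran the other way, with 1.28 ± 0.17 at E17.5 and 0.45 ± 0.13 earlier. The summed atrial markers were given above, and the part of atrial tissue in these values was not tested.

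Among 40 measured sarcomere genes, 8 were higher in the right and 0 in the left at E17.5, and 9 and 1 earlier; Myom2 was the one that passed the test of the change. Shares over all genes tested were 0.246% left and 0.881% right at E17.5, and 3.21% and 5.64% earlier. The main ventricular myosins and light chain were not called at E17.5. Myh7, the slow myosin heavy chain, had −0.05 ± 0.12 at E17.5 and −0.23 ± 0.10 earlier; Myl2, the ventricular regulatory light chain, had 0.05 ± 0.11 and 0.04 ± 0.09. Myh6, the fast heavy chain, had −0.33 ± 0.13 at E17.5 and a called −0.47 ± 0.10 earlier.

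Of 26 calcium handling genes, 3 were higher in the right at E17.5 and 10 earlier, with none higher in the left at either. By comparison, 0.246% of all genes tested were called left and 0.881% right at E17.5, and 3.21% and 5.64% earlier. Casq1, the skeletal isoform of the calcium store protein calsequestrin, was kept at −1.55 ± 0.14 at E17.5 and −1.46 ± 0.11 earlier. Ryr2, the calcium release channel, had −0.10 ± 0.09 at E17.5 and a called −0.64 ± 0.08 earlier. Of 20 potassium channel genes, 2 were higher in the left and 0 in the right at E17.5, against 3 and 6 earlier. The 2 were Kcnk3, a leak channel, with 0.68 ± 0.09 at E17.5 and 1.19 ± 0.07 earlier, and Kcnd2, a subunit of the transient outward current, with 0.76 ± 0.13 and 0.54 ± 0.11. Kcnj12, an inward rectifier, had −0.39 ± 0.09 at E17.5 and −1.06 ± 0.08 earlier.

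Of the transcription factor genes that pattern the chambers, Hand1, Hand2 and Cited1 were called on the same side at both. Hand1, a first heart field factor of the left ventricle, was at 13.9 CPM in the left and 2.00 CPM in the right ventricle of embryo 2 and at 14.2 and 3.15 CPM in embryo 3 at E17.5. Earlier it was at 38.3 CPM in the left and 6.16 CPM in the right at E13.5, and at 22.2 and 4.96 CPM and 23.3 and 4.14 CPM at E14.5. Its difference was 2.45 ± 0.18 at E17.5 and 2.43 ± 0.13 earlier, and the change was 0.03 ± 0.22 (adjusted p = 0.975). Hand2, the partner factor with a role in the right ventricle, had −0.35 ± 0.07 at E17.5 and −0.34 ± 0.05 earlier. Cited1, a transcriptional co-regulator, had 0.55 ± 0.10 at E17.5 and 0.65 ± 0.08 earlier.

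Tbx5, a T-box factor of the left ventricle and atria, had 0.61 and 0.01 in the E17.5 embryos, against 0.71 at E13.5 and 0.25 and 0.65 at E14.5; it was called earlier and not at E17.5. Tbx20 and Irx4, factors of both ventricles, were called at neither. Of 33 listed factors, 3 were higher in the left and 2 in the right at E17.5, and 5 and 7 earlier. Among all genes tested, 0.246% were called left and 0.881% right at E17.5, and 3.21% and 5.64% earlier.

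The 8 left genes with the largest kept difference were Spp1, Hand1, Gtsf1, Nrn1, Sfrp5, Tfcp2l1, Ntn1 and Igfbp2. Gtsf1, a zinc finger protein known from the germline piRNA pathway, had 2.94 and 1.92 at E17.5, against 2.74 at E13.5 and 3.03 and 3.08 at E14.5. Nrn1, the membrane protein neuritin, had 1.93 and 2.30, against 2.28, 2.31 and 1.90. Spp1, the matrix protein osteopontin, ranged most, with 4.41 and 2.61 at E17.5, against 2.52, 2.93 and 5.20. Ntn1, the guidance protein netrin 1, had 1.16 and 1.02, against 1.02, 1.61 and 0.96, and Igfbp2, which binds insulin-like growth factors, had 0.86 and 1.23, against 1.13, 1.18 and 1.13. Sfrp5, a Wnt antagonist, had 1.18 ± 0.21 at E17.5 and 1.85 ± 0.19 earlier, while Tfcp2l1, a transcription factor, had 1.17 ± 0.21 at E17.5. The level of Igfbp2 in the left ventricle was 8.67 and 14.4 CPM at E17.5, against 70.2, 37.1 and 40.2 CPM earlier, so that level was lower at E17.5 while the difference between the chambers stayed.

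The 8 right genes with the largest kept difference were Mybpc1, Sln, Ltbp2, Abi3bp, Rspo3, Wif1, Plppr5 and Bmp2. Wif1, a secreted Wnt inhibitor, had −1.95 and −1.81 at E17.5, against −2.12 at E13.5 and −1.39 and −2.03 at E14.5. Mybpc1, the slow skeletal myosin-binding protein C, had −2.44 and −4.17, against −2.59, −4.28 and −3.92. Rspo3, a Wnt agonist, had −2.70 and −3.98, against −1.62, −2.84 and −1.67, and Bmp2, a growth factor of the cushions, −2.12 and −2.74, against −1.36, −2.09 and −1.11. The matrix genes Ltbp2 and Abi3bp had −3.47 ± 0.53 and −2.20 ± 0.37 at E17.5, and −2.37 ± 0.35 and −2.34 ± 0.32 earlier. Plppr5 had −1.72 ± 0.21 and −1.97 ± 0.17. Gria1, a glutamate receptor subunit, and Maob, a monoamine oxidase, had −1.65 ± 0.15 and −1.13 ± 0.11 at E17.5, and −1.35 ± 0.11 and −1.11 ± 0.09 earlier. For the 8 genes named first, a right excess in 5 of 5 embryos was part of the rule that chose them. Gria1 and Maob, named whatever their values, were also higher in the right ventricle of 5 of 5 embryos.

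**Figure D4:**
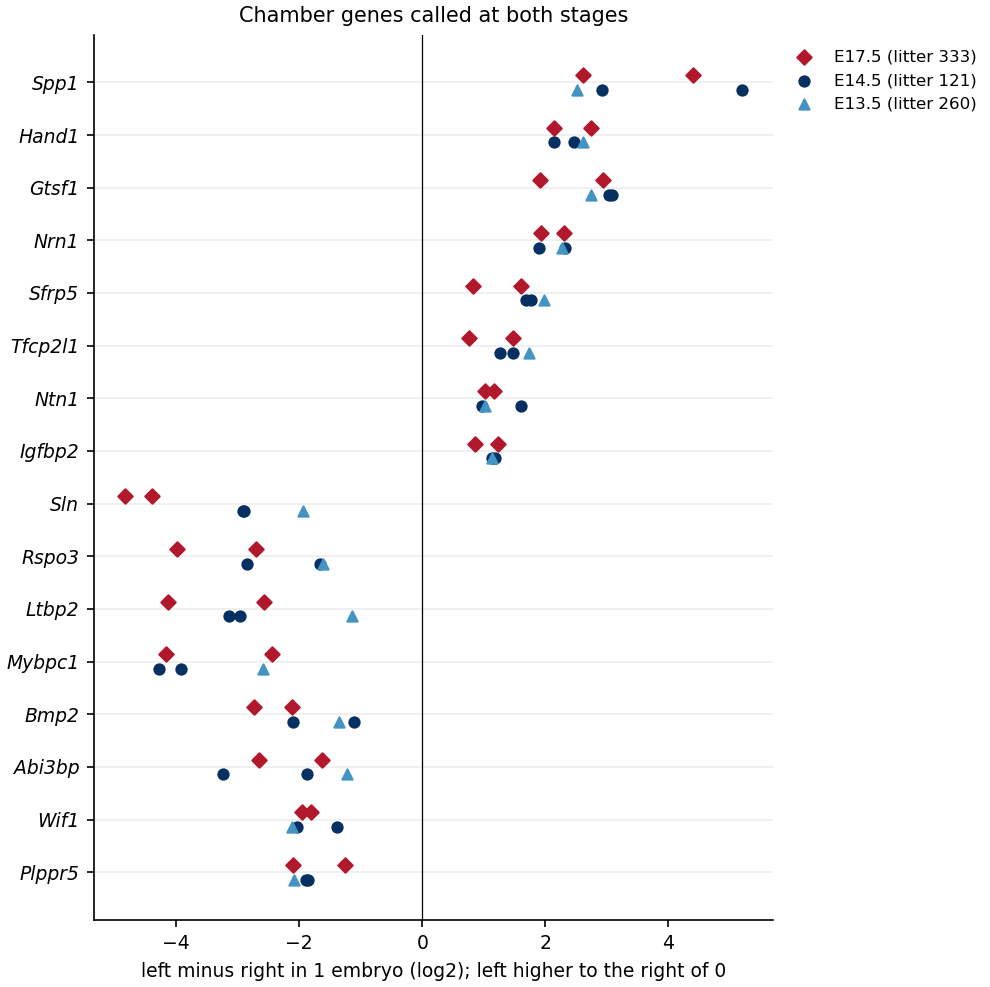
Left minus right difference (log2 CPM) in each control embryo for the 16 kept genes, 8 higher in the left and 8 higher in the right ventricle; diamonds are E17.5, circles E14.5 and triangles E13.5. All symbols of a gene lie on its side of 0, which the choice of these genes required. Those of Hand1 lie between 2.14 and 2.75, and the diamonds of Sln, at −4.40 and −4.84, lie apart from the earlier values.

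The 140 kept genes were also read in the HLHS embryos. In 104 of them (74.3%) all 3 HLHS embryos had the sign of the controls, against 27.5% of all tested genes. Hand1 had 2.19 at E17.5, against 2.42 at E13.5 and 2.20 at E14.5, in HLHS. The connexin 40 gene Gja5, of trabeculae and conduction fibres, was also kept in controls, at 1.05 ± 0.11 at E17.5 and 1.48 ± 0.09 earlier. Nppa, the atrial natriuretic peptide of trabeculae, had 0.82 and 0.06 at E17.5, against 0.85, 1.32 and 0.63, and was called earlier and not at E17.5.

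Listed genes of the Wnt pathway and of the TGF-beta and BMP pathways, not limited to a tissue, leaned right at both. Of 31 Wnt genes, 1 was higher in the left and 4 in the right at E17.5, and 1 and 9 earlier; of 33 TGF-beta and BMP genes, 1 and 4 at E17.5, and 0 and 10 earlier. Markers of valve and cushion mesenchyme were higher in the right for 3 of 15 genes at E17.5 and for 11 earlier, with medians of −0.56 and −0.79. Those of outflow tract and second heart field were higher in the right for 3 of 8 at E17.5 and for 5 earlier. All genes tested had shares of 0.246% left and 0.881% right at E17.5, and 3.21% and 5.64% earlier. Sema3c, a guidance cue of the outflow tract, had −0.73 and −0.60 at E17.5, against −1.42 at E13.5 and −1.30 and −1.44 at E14.5; it was called at both, and the change of 0.73 ± 0.12 had an adjusted p of 0.164. The summed cushion markers reached 1398 to 1529.6 CPM in left and 1646 to 1982 CPM in right ventricles at E17.5, against 1168 to 1403 CPM in left and 1563 to 2163 CPM in right ventricles earlier; their part in the right excess was not tested.

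Cell cycle genes were the largest group called in the left ventricle earlier. Of 50, 21 were higher in the left and 1, the inhibitor Cdkn1a, in the right earlier, and none was called at E17.5. Calls over all genes tested were 3.21% left and 5.64% right earlier, and 0.246% and 0.881% at E17.5. The median difference was 0.12 at E17.5 and 0.22 earlier, and the median change was −0.09, with none called by the test of the change. For the mitotic kinase gene Bub1 the difference was 0.21 ± 0.08 at E17.5 and 0.39 ± 0.07 earlier. For the replication clamp gene Pcna it was −0.01 ± 0.08 and 0.28 ± 0.06.

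None of 29 glycolysis and glycogen genes was called at E17.5, while 1 was higher in the left and 5 in the right earlier. Of 78 nuclear genes of oxidative phosphorylation, none was called at E17.5 and 1, Cox6a2, was higher in the right earlier, with medians of 0.00 and 0.03. None of 24 citric acid cycle genes was called at either. Of 36 fatty acid oxidation genes none was called at E17.5, while 3 were higher in the left and 6 in the right earlier. Over all genes tested, the shares called left and right were 0.246% and 0.881% at E17.5, and 3.21% and 5.64% earlier. Ppara, a regulator of lipid catabolism, had 0.39 and 0.26 at E17.5, against −0.09 at E13.5 and −0.63 and −0.66 at E14.5. Its change of 0.80 ± 0.18 had an adjusted p of 0.202.

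None of 12 erythroid, 12 macrophage and 5 platelet markers was called at E17.5, and none of 12 general endothelial markers. In the lists for endocardium (8 tested), mast cells and granulocytes (8) and liver (5), 1 gene each was higher in the right. Of all genes tested, 0.881% were called right at E17.5. Alb, the albumin of liver, was at 0.12 CPM in the left and 0.24 CPM in the right ventricle of embryo 2 at E17.5, and at 8.45 and 0.53 CPM in embryo 3; no earlier library exceeded 1.83 CPM.

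With the E13.5 embryo left out, the change between E17.5 and E14.5 passed for 619 genes that were higher at E17.5 (3.86% of 16021) and 210 that were lower (1.31%). The median left minus right difference of the 619 genes was 0.14 and 0.06 at E17.5, against −0.37 and −0.36 at E14.5; these values are how the genes were chosen. The E13.5 embryo, which that fit did not use, had −0.04, and it lay nearer the E17.5 mean than the E14.5 mean for 537 of the 829 genes (64.8%). The choice of the genes favours this count. Their median differences were larger in size at E14.5 than at E17.5, so an embryo with little difference tends to count as nearer E17.5. Of the 139 genes called in the same comparison once a trend on transcript length was removed, the E13.5 embryo lay nearer the E17.5 mean for 71 and nearer the E14.5 mean for 68. In the HLHS embryos the median of the 619 was −0.10 at E17.5, against −0.0013 at E13.5 and −0.11 at E14.5. Between E14.5 and E17.5, 59.1% of the 829 moved in the control direction in HLHS. Of all tested genes, 54.5% did so when E17.5 was set against the mean of the earlier HLHS differences. That is a different comparison, and no like share of all tested genes is given for the 64.8% or the 59.1%.

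The 829 genes differed in transcript length. The longest annotated transcript had a median of 7667 bases for the 609 higher genes with a length, 1674 bases for 203 lower ones and 3251 bases for all tested. Over all genes, the median left minus right difference of transcripts of 6000 bases or more was 0.10 and 0.03 in the E17.5 embryos, against 0.01 at E13.5 and −0.20 and −0.17 at E14.5. For transcripts under 2000 bases it was −0.06 and 0.00 at E17.5, against −0.05 at E13.5 and 0.17 and 0.08 at E14.5. In both E14.5 embryos the left ventricle thus held relatively less of long and more of short transcripts. With the trend on transcript length removed from each library, 139 genes were called between E17.5 and E14.5, of which 102 were among the 829. The part of RNA quality in this pattern was not tested. Of the 140 kept genes, 139 were still called at both with the trend removed, and Myom2 still passed, with a change of 1.01 (adjusted p = 0.0113).

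**Figure D5:**
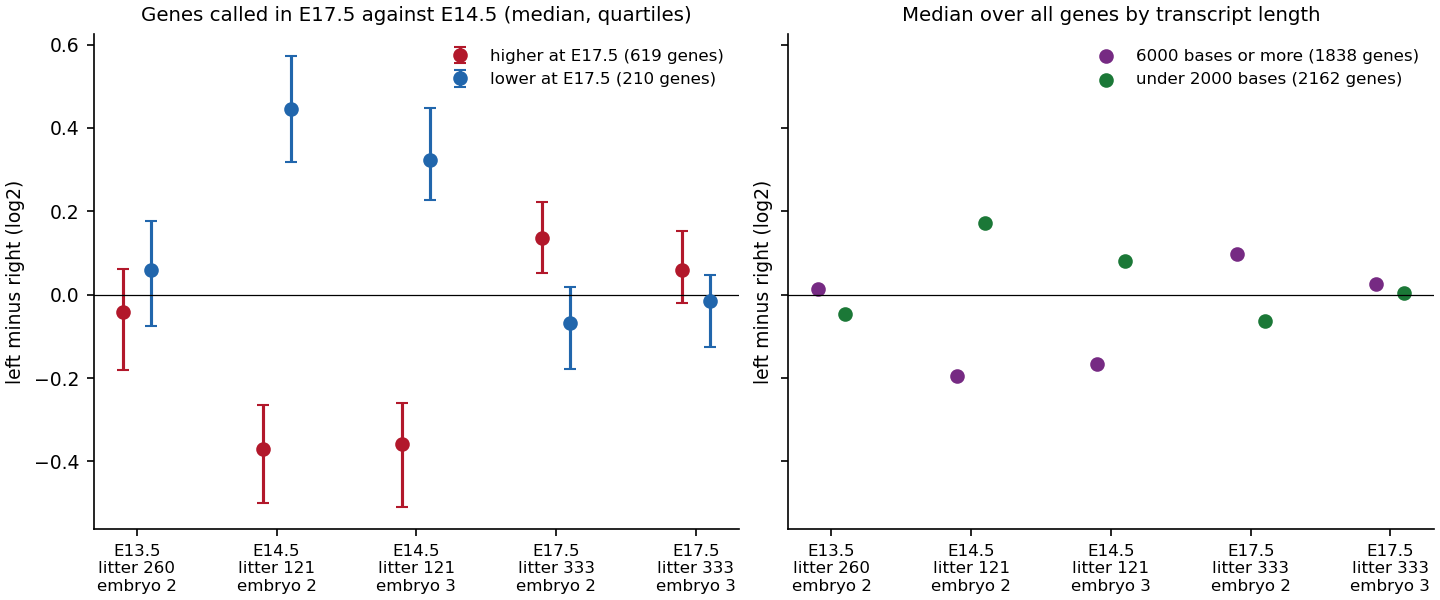
Left minus right difference (log2 CPM) in each control embryo, from E13.5 to E17.5. The first panel shows the median and quartiles of the 619 genes called higher and the 210 called lower at E17.5 against E14.5, and the second the median over 1838 genes with transcripts of 6000 bases or more and 2162 under 2000 bases; in both panels the E14.5 embryos lie farthest from 0.

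All 10 genes with the smallest p of the change were called in the fit without the E13.5 embryo, with edgeR adjusted p from 0.00213 for Myom2 to 0.00571 for Abcc8; the fits share their E17.5 and E14.5 libraries. All 10 were also called there with the length trend removed (highest adjusted p 0.0428, Hif3a). Other named examples differ in where the E13.5 embryo lay. Hipk2, a nuclear kinase with a long transcript, had 0.21 and 0.30 at E17.5, against 0.09 at E13.5 and −0.72 and −0.93 at E14.5. Bmpr2, a BMP receptor, had 0.36 and 0.27, against 0.01 and then −0.65 and −0.83. Their changes between E17.5 and E14.5 were 1.08 for Hipk2 and 1.05 for Bmpr2, and 0.86 and 0.67 with the length trend removed. In both, the E13.5 embryo was closer to E17.5. Ccn2 was also called in that fit (adjusted p = 0.00224), and for it and Myom2 the E13.5 embryo lay with or beyond the E14.5 ones. Among the 19 cardiac stress genes, 6 were called lower and 0 higher at E17.5 than at E14.5 (1.31% and 3.86% over all genes). With the length trend removed, Ccn2 and Tnfrsf12a were called lower and 0 genes higher, against 0.402% lower and 0.499% higher over all genes.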

How the data were processed

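RNA of both ventricles of each of 5 control embryos was measured in 10 libraries made with a TruSeq kit, per the labels' protocols. The deposited values are whole-number read counts per gene; per the submitters' processing notes the authors used build mm9, HTSeq 0.5.4p5, TopHat2 2.0.9, edgeR 3.4.2 and Picard. The annotation and the use of strand in counting were not given in the sources used here. Overlapping, antisense and near-identical genes may therefore share reads. The table holds 37991 genes, of which 32919 matched a symbol. Coordinates of the counted genes are left out, since the available reference has a different build.

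The test was edgeR 4.0.16 in R 4.3.3 (TMM; glmQLFit and glmQLFTest; filterByExpr at 10 counts per library and 15 in total), with terms for embryo, side and side by stage group, and Benjamini-Hochberg adjustment over all genes tested at a threshold of 0.05. Fitted log2 differences are given with standard errors (SE); left minus right values of single embryos are differences of log2 CPM with a prior count of 2, and CPM use TMM factors over all 16 libraries. The numbers pair the ventricles of 1 embryo, from the labels; the left and right deviations from group means had an r of 0.616 to 0.793 across genes. Control libraries of a group differed by more than sampling noise (lowest chi-square per degree of freedom 7.01 over 4 pairs).

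A gene stayed if it was called with the same sign at both and its change was not called; it faded or appeared if the change was called and the difference was smaller or larger at E17.5. Genes are named by rule: the 10 smallest p of the change where fewer than 10 pass; the 8 kept genes per side with the largest difference, the smaller of both stage groups counting, at an average log2 CPM of at least 2; up to 4 called members of each list; and 16 chamber genes whatever their values. Up to 3 examples of each list, and examples of the fit without the E13.5 embryo, were chosen after their values were seen. Members and the 47 gene lists were chosen with earlier results of these data known.

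Transcript lengths are the longest GENCODE M21 transcript of a gene, used as a property only; the length trend was removed per library by a lowess offset with a span of 0.3. Promoters are from RefSeq. The fit was tested on simulated data. Alternatives were DESeq2 1.42.0, limma 3.58.1 (voom), other size factors and filters, no embryo block, all libraries in 1 fit, globin genes left out, embryonic day as a number and each embryo left out; those on transcript length and without the E14.5 litter were chosen after seeing the data.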

Additional observations from a re-analysis of the deposited data

Results flagged for a closer look

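Among the genes named by rule, the difference between the stage groups was tested and passed for Myom2 (change of the log2 left minus right difference, E17.5 minus earlier, 1.09). In 8 further genes both E17.5 embryos had one sign and all 3 earlier embryos the other, while the test of the change missed the threshold: Aldh1l2 (0.65), Adamts6 (0.97), Tnnt1 (−0.85), Pcsk6 (1.12), Zbtb16 (1.07), Plin4 (0.87), Hif3a (0.56) and Nppb (−0.78). Among the examples chosen after their values were seen, Ccn2 (−0.93) and Ppara (0.80) had the same pattern. With the E13.5 embryo left out, the change between E17.5 and E14.5 was tested and passed for Hipk2 (1.08), Bmpr2 (1.05) and Ccn2 (−0.74); with the transcript-length trend removed the changes were 0.86, 0.67 and −0.69. A pattern of opposite signs held for 1431 of the 16238 genes tested (8.81%). Of the 8 further genes, all but Nppb were chosen by the smallest p of this same change, which favours such a pattern. Groups of 2 and 3 embryos are too small for a check of single outlying embryos.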

How the results depend on the processing

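The reported fit pairs the ventricles of an embryo. With no replicate block the change was called for 0 genes, the E17.5 difference for 4 and the earlier difference for 100, and Myom2 missed the threshold. The change, called for 1 gene, was called for 40 by DESeq2's Wald test, 45 with no count filter, 11 with embryonic day as a number, 139 in E17.5 and E14.5 embryos with the length trend removed, 603 with the E14.5 litter left out, and 0 to 829 with each embryo left out. The 603 rest on 1 degree of freedom among embryos. The E17.5 count of 183 was 370 with no count filter, 575 in E17.5 and E14.5 embryos with the length trend removed, 1313 without the E14.5 litter, and 16 to 566 with each embryo left out. The earlier count of 1438 was 902 with all 16 libraries, 2951 in E17.5 and E14.5 embryos with the length trend removed, and 125 to 3845 with each embryo left out; with 1 embryo left at a stage, that embryo is assumed to vary like the others. The cause of these shifts was not tested. For named genes, 590 of the recomputed changes kept their side of the threshold, 69 passed in addition and 4 no longer passed. No change called in either fit reversed, but uncalled changes did change sign. With each embryo left out, that of Spp1 ran from −1.22 to 0.91 and that of Hand1 from −0.26 to 0.35. With 2 and 3 embryos, changes smaller than the spread between embryos are not detectable, and stage and litter cannot be told apart.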
